A study of Mus musculus with 8 samples.

Results

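The Serpin family was taken as every gene whose symbol consists of Serpin, a letter from a to i and a number, and these were 63 of the 23432 genes counted in each library. Members were chosen by symbol. The family itself was taken up with earlier results of these data known, among them higher levels of Serpinb3a and Serpina3n in MOF cKO, so those changes are given with no test. The RNA came from mouse skin epithelium in which MOF or Kansl1 had been deleted, to ask what the epithelium expresses without them. MOF, encoded by Kat8, is the acetyltransferase that modifies lysine 16 of histone H4, and Kansl1 is a subunit of the NSL complex, in which MOF also works. At E16.5, epithelial cells carrying the Krt14-H2BGFP reporter were sorted from back skin of 2 control and 2 MOF fl/fl/K14Cre (MOF cKO) embryos, so the controls carried the reporter as well. At P0.5, epidermis was freed from the dermis of 2 control and 2 Kansl1 fl/fl/K14Cre (Kansl1 cKO) newborns with Dispase and lysed on TRIzol. Deletion in Kansl1 cKO removes exon 3. Cre was driven by the keratin 14 promoter, so dermal, immune and pigment cells kept both genes, and all mice were of mixed C57Bl/6J and CD-1 background. The labels give the genotype of the controls only as control.

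Serpins are suicide-substrate inhibitors of proteases. A protease that cuts the exposed reactive centre loop is trapped as the loop inserts into the body of the serpin, and small residues at the base of the loop, the hinge, let it insert. Clade B members act inside cells, and many of them are made in epidermis as keratinocytes differentiate. Clade E members restrain the proteases that activate plasminogen and thrombin, clade A holds the inhibitors that the liver secretes into plasma, and Serpinh1 is a chaperone of collagen with no protease to inhibit.

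All 63 members were found in GENCODE M21, with 24 on chromosome 12, 15 on chromosome 13 and 14 on chromosome 1. Of the 61 members with a coding transcript, 40 held a hinge that matched a stretch of 8 residues within the last 100, namely glutamate, any residue, glycine, threonine or serine, any residue, and then 3 small residues. The reactive centre loops of the 4 Serpinb3 genes, mouse counterparts of the squamous cell carcinoma antigens, are shown because these close paralogs had different levels in the libraries. Each line gives the coding strand from the first hinge codon, read from GENCODE M21 transcripts at chr1:107046085-107046174 for Serpinb3a, chr1:107154438-107154527 for Serpinb3b, chr1:107271698-107271784 for Serpinb3c and chr1:107078262-107078351 for Serpinb3d, in mm10 and on the minus strand. Capitals in the Serpinb3a line mark bases that at least 1 of the other 3 genes does not share, and capitals in the other lines mark bases that differ from Serpinb3a.
Serpinb3a: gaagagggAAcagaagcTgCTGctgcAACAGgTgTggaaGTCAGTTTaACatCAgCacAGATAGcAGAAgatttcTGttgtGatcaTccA
Serpinb3b: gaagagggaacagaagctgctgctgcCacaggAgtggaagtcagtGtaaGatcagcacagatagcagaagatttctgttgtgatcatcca
Serpinb3c: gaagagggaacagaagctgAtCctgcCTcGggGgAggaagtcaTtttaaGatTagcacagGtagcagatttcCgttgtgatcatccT
Serpinb3d: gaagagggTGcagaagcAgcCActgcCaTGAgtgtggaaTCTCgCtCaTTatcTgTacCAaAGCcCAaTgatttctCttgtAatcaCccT
Over this loop Serpinb3b differed from Serpinb3a at 4 bases, Serpinb3c at 13 bases with 3 further bases missing, and Serpinb3d at 31 bases. Identity to Serpinb3a was 95.6%, 82.2% and 65.6% over the loop and 92.9%, 91.3% and 89.4% over whole coding sequences. Whole coding sequences were thus closer than the loop for Serpinb3c and Serpinb3d, but not for Serpinb3b. The hinge pattern was found in Serpinb3a and Serpinb3b and was not found in Serpinb3c and Serpinb3d.

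RefSeq promoters on GRCm38.p6, the same assembly as mm10, were at hand for 52 members with 61 starts. The 250 bases before the start are printed for Serpinb3a and Serpinb3b, which were both higher in MOF cKO, and for Serpine2, which was also higher there and has a promoter of another kind. They lie on the minus strand at chr1:107052304-107052553, chr1:107161115-107161364 and chr1:79858666-79858915, and capitals mark TATAAA or GGGCGG on either strand.
Serpinb3a: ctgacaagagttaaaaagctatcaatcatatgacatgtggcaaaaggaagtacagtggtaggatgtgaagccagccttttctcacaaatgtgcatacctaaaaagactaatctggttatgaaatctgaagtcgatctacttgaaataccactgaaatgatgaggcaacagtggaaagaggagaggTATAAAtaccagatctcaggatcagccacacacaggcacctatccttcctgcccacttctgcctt
Serpinb3b: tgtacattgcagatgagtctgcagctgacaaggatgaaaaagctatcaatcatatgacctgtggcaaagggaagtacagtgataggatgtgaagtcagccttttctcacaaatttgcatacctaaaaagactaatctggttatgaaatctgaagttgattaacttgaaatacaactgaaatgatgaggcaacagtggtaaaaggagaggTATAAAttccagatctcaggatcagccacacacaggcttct
Serpine2: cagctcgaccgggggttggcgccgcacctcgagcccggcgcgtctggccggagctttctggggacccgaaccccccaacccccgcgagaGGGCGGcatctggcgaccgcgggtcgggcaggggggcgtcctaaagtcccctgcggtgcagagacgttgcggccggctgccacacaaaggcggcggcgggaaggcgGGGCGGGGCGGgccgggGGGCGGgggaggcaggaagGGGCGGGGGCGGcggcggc
The first pair aligned with 77.0% identity over 274 columns, where columns with gaps count as not identical. Each held 1 TATAAA, which begins 65 bases before the start in Serpinb3a and 41 in Serpinb3b. The windows are thus shifted against each other, and the identity over aligned bases alone is higher than 77.0%. Serpine2 held no TATAAA, 6 GGGCGG matches and 34 CG pairs, against 1 CG pair for Serpinb3a and 0 for Serpinb3b. Member promoters held a median of 2 CG pairs, where the 32851 promoters of the table held 6. TATAAA was found in 27.9% of member promoters and 12.4% of all, GGGCGG in 11.5% and 32.7%, and TGANTCA, the letters bound by AP-1 factors, in 19.7% and 6.75%. Each motif was searched on both strands, and in the printed sequences no match overlapped another motif, while a pair of GGGCGG matches in Serpine2 shared a base. TATAAA matched in all 4 Serpinb3 genes, Serpinb12 and Serpinb2, and TGANTCA in the latter pair only among these 6 genes. TATAAA also matched in other members, among them Serpinb7, which held TGANTCA too, Serpina3b and Serpina3c. It did not match in Serpinb6c, Serpina3g or Serpina3n, which were higher in MOF cKO. The relation of motifs to levels was not tested.

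Gene counts summed to between 22484018 and 27561688 per library at E16.5 and between 9108709 and 19774643 at P0.5, so 1 count was worth between 0.0299 and 0.122 CPM (counts scaled to library size with TMM factors over the 8 libraries). Each group had 2 libraries. Kat8 stood at 13.3 and 13.6 CPM in E16.5 controls and at 11.5 and 12.8 CPM in MOF cKO, and was not called (log2 fold change -0.14 ± 0.18 SE, edgeR adjusted p = 0.554). Kansl1 stood at 43.4 and 51.8 CPM in P0.5 controls and at 34.6 and 33.4 CPM in Kansl1 cKO (log2 fold change -0.52 ± 0.17, edgeR adjusted p = 0.242). A count over a whole gene also takes reads of the exons that remain, so neither value checks the deletion, and groups are named here as labelled. P0.5 control 1 stood apart in skeletal muscle markers, which summed to 392 CPM there and to 13.3 CPM or less in the other P0.5 libraries.

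The family was expressed at a low level at E16.5 and a high one at P0.5. Summed over the 63 members, levels were 1030 and 1045 CPM in E16.5 controls, 1466 and 1463 CPM in MOF cKO, 7318 and 5318 CPM in P0.5 controls, and 6775 and 7880 CPM in Kansl1 cKO. At a mean of 1 CPM or more, 23 members were present in E16.5 controls, 25 in MOF cKO, 32 in P0.5 controls and 31 in Kansl1 cKO. On the scale of CPM per kilobase of exons, which allows levels of different genes to be set side by side, Serpinh1 led the E16.5 controls at 151, ahead of Serpinb5 at 93.8, Serpinb10 at 30.4 and Serpina3h at 25.3. Serpinb5, called maspin, is a clade B serpin that inhibits no known protease. The first 2 of these genes made up 40.3% and 25.1% of the family's summed CPM per kilobase. Serpinb10 is listed by GENCODE M21 as a polymorphic pseudogene, and its exons overlap those of Serpinb2 on the same strand. In P0.5 controls the order was Serpinb5 at 521, Serpinb12 at 444, Serpinb3a at 382 and Serpinb2 at 303 CPM per kilobase, and Serpinh1 was no longer among the first 8. In Kansl1 cKO, Serpinb3a was first at 625 CPM per kilobase, ahead of Serpinb12 at 564 and Serpinb5 at 527.

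**Figure D1:**
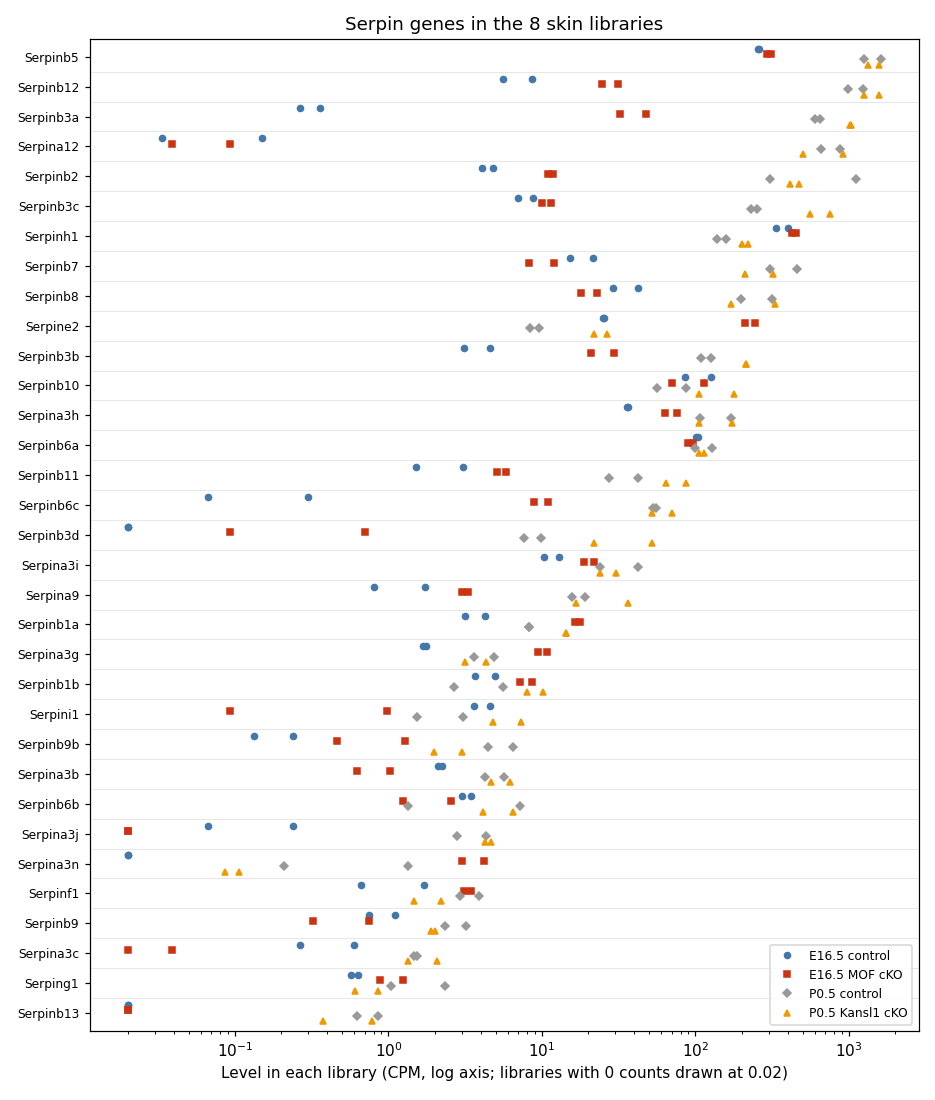
Level of 33 Serpin genes in every library (CPM, log axis), with the 2 libraries of a group sharing a colour and marker and libraries with 0 counts drawn at 0.02. Most clade B genes lie far to the right at P0.5, while Serpinh1 and Serpine2 lie to the left of their E16.5 positions.

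The other 29 members stayed under 1 CPM in every group and were called in no comparison. Of these, Serpina3f and Serpinc1 passed the filter on low counts in MOF cKO. Counts were 0 in all 8 libraries for 12 of them: Serpina10, Serpina1b, Serpina1c, Serpina1d, Serpina6, Serpinb6d, Serpinb9c, Serpinb9d, Serpinb9f, Serpinb9g, Serpine3 and Serpini2. Serpinf2, the antiplasmin of plasma, reached 18 counts in its highest library, Serpina3f 17, Serpinc1 (antithrombin) 15, Serpind1 (heparin cofactor II) 8 and Serpina1a 5. Serpina11 reached 3 counts. Serpina1f, Serpina5, Serpina7, Serpinb6e and Serpinb9e reached 2, and Serpina1e, Serpina3a, Serpina3k, Serpina3m, Serpina4-ps1 and Serpinb1c reached 1.

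In MOF cKO, 10 of the 31 tested members were higher than in control and 1 was lower. To be called, a gene had to pass an edgeR adjusted p of 0.01 and change by more than 1.5-fold, and by that rule 10% of all 13956 genes tested were higher and 9.59% were lower. In either direction 35.5% of the tested members were called, against 19.6% of all genes, and 21 had an unadjusted p under 0.05, against 48.9% of all genes. The members' median log2 fold change was 0.82 and that of all genes was -0.02. The filter on low counts let 4 members through on their MOF cKO libraries alone (Serpina3n, Serpinb3a, Serpinb6c and Serpinb9b) and 3 on their control libraries alone, so the counts and the median describe the members that passed and support nothing. Of the 23 members that either group alone would have let through, 7 were higher and 1 was lower, against 10.4% and 10.4% of all such genes. The 32 members that did not pass carry no test. Values did not overlap between the groups for 29 of the 31 members, against 72.7% of all genes.

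Clade B supplied the most called members and also the most tested ones. Of its tested members, 4 of 10 on chromosome 1 and 2 of 7 on chromosome 13 were higher. In clade A, 3 of 7 tested were higher, against 10% of all genes. Serpinb3a was at 0.359 and 0.267 CPM in controls and at 47.6 and 32.2 CPM in MOF cKO, which is 12 and 8 counts against 1027 and 824. Both MOF cKO libraries were thus far above both controls, with a log2 fold change of 6.96 ± 0.32. Its paralog Serpinb3b went from 4.61 and 3.11 CPM to 29.4 and 20.8 CPM (log2 fold change 2.69 ± 0.27, edgeR adjusted p = 0.000702). The GENCODE M21 exons of Serpinb3b overlap those of Serpinb3c on the same strand, and 3.40% of the 150-base windows of Serpinb3a also occur in the pseudogene Gm8080, so reads there could match more than 1 gene. Reads that HTSeq set aside as ambiguous or not unique were among the summary rows left out. Serpinb3c, the paralog that lacks the hinge pattern and 3 loop bases in the sequences above, stood at 8.81 and 6.94 CPM in controls and at 9.96 and 11.5 CPM in MOF cKO. It was not called (log2 fold change 0.44 ± 0.23, edgeR adjusted p = 0.17), although the groups did not overlap. Serpinb3d had 0 counts in both controls and 2 and 18 counts in MOF cKO, and did not pass the filter.

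Serpinb6c, a relative of the cathepsin G inhibitor Serpinb6a, was at 0.299 and 0.0668 CPM in controls and at 11.02 and 8.90 CPM in MOF cKO. This was 10 and 2 counts against 238 and 228 (log2 fold change 5.69 ± 0.56, edgeR adjusted p = 0.000654), in a gene that passed the filter through MOF cKO alone. Serpinb6a itself stood at 100.2 and 104 CPM in controls and at 88.9 and 96.3 CPM in MOF cKO, and did not pass the test (log2 fold change -0.14 ± 0.11, edgeR adjusted p = 0.32). Serpinb12, an inhibitor of trypsin-like proteases, went from 8.57 and 5.54 CPM to 31.4 and 24.4 CPM (log2 fold change 1.98 ± 0.25, edgeR adjusted p = 0.00133). Serpinb2, plasminogen activator inhibitor 2, went from 4.76 and 4.07 CPM to 11.7 and 11.01 CPM (log2 fold change 1.36 ± 0.24, edgeR adjusted p = 0.00466). For all 3 of the genes called here, the lower MOF cKO library was above the higher control. Serpinb1a, which inhibits neutrophil elastase and cathepsin G, was at 4.28 and 3.17 CPM in controls and at 17.7 and 16.47 CPM in MOF cKO (log2 fold change 2.19 ± 0.24, edgeR adjusted p = 0.000808).

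Serpinb5, Serpinb7 and Serpinb8 were not called. Serpinb5 was at 255 and 261 CPM in controls and at 309 and 293 CPM in MOF cKO (log2 fold change 0.22 ± 0.10, edgeR adjusted p = 0.115). Serpinb7, a gene whose loss causes a palmoplantar keratosis in humans, was at 21.5 and 15.1 CPM in controls and at 11.9 and 8.20 CPM in MOF cKO (edgeR adjusted p = 0.0329). Serpinb8, an inhibitor of furin, was at 42.1 and 29.2 CPM in controls and at 22.7 and 18.0 CPM in MOF cKO (edgeR adjusted p = 0.0212). The MOF cKO libraries of the latter pair were below both controls, with log2 fold changes of -0.87 ± 0.26 and -0.81 ± 0.21 that missed the threshold of 0.01. Serpinb10 and Serpinb11 had log2 fold changes of -0.21 and 1.24, Serpinb1b 0.88, Serpinb6b -0.77, Serpinb9 -0.78 and Serpinb9b 2.20, with edgeR adjusted p between 0.0506 and 0.535.

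In clade E, Serpine2 was higher. It encodes protease nexin 1, which inhibits thrombin and urokinase, and was at 24.9 and 25.3 CPM in controls and at 209 and 246 CPM in MOF cKO. Its log2 fold change was 3.18 ± 0.13 (edgeR adjusted p = 5.82e-05), the smallest adjusted p of the family in this comparison. Both MOF cKO libraries were far above both controls.

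In clade A, 3 genes of the Serpina3 group were higher. Serpina3g, an inhibitor of lysosomal cathepsins known from activated leukocytes, went from 1.77 and 1.67 CPM to 9.40 and 10.7 CPM (log2 fold change 2.55 ± 0.29, edgeR adjusted p = 0.00096). Serpina3h, listed by GENCODE M21 as a transcribed pseudogene, went from 36.1 and 36.5 CPM to 63.0 and 75.4 CPM (log2 fold change 0.93 ± 0.13, edgeR adjusted p = 0.00194). Serpina3n, an acute phase inhibitor, had 0 counts in both controls and 65 and 108 counts, or 3.01 and 4.22 CPM, in MOF cKO, and was at least 38.0-fold higher than the level that 3 counts per library would give. Placed at this bound it leaves the members' median at 0.82. Serpina3i was at 10.2 and 12.95 CPM in controls and at 18.8 and 21.8 CPM in MOF cKO (log2 fold change 0.81 ± 0.19, edgeR adjusted p = 0.0143). Serpina9 and Serpina3b had log2 fold changes of 1.31 and -1.40 with edgeR adjusted p of 0.0912 and 0.089. Under the stricter test against a 1.5-fold change, Serpina3h and Serpinb2 lost their calls (edgeR adjusted p = 0.0311 and 0.0248), and both also lost them in 1 fit over all 8 libraries (0.0225 and 0.0584). Serpinb2 also lost its call with library size as the scaling (0.0113).

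**Figure D2:**
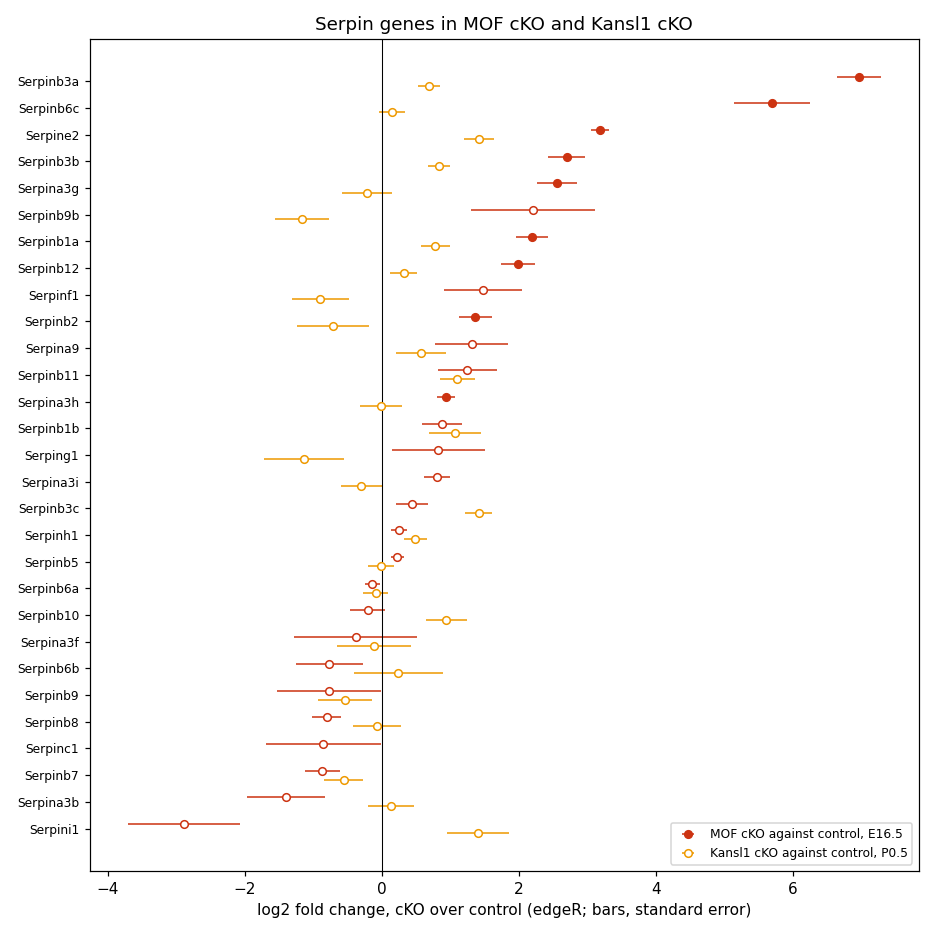
log2 fold change of Serpin genes tested in MOF cKO (red) and in Kansl1 cKO (orange) over its own controls, with bars of 1 standard error and filled points for genes called. Serpina3n is left out because its controls had 0 counts, and the filled points, all 9 of them red, lie to the right of 0.

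Members outside these clades moved little or fell short of the test. Serpinh1, the collagen chaperone, was at 335 and 401 CPM in controls and at 424 and 451 CPM in MOF cKO (log2 fold change 0.25 ± 0.12, edgeR adjusted p = 0.136). Serpini1, neuroserpin, an inhibitor of tissue plasminogen activator, was at 4.58 and 3.61 CPM in controls and at 0.0926 and 0.976 CPM in MOF cKO, where the libraries were 2 and 25 counts. Its log2 fold change of -2.89 ± 0.82 had an edgeR adjusted p of 0.0282. Serpinf1, which encodes PEDF, and Serping1, the C1 inhibitor, had log2 fold changes of 1.48 and 0.82 (edgeR adjusted p = 0.0789 and 0.37).

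Marker levels moved in the same libraries, where 10% of all genes tested were called higher and 9.59% lower. Suprabasal epidermal markers summed to 3935 and 3201 CPM in E16.5 controls and to 8708 and 9493 CPM in MOF cKO, with 9 of 11 called higher, led by Ivl and Tgm1 (log2 fold changes 4.26 and 3.81). The list of wound and stress keratins summed to 1525 and 2124 CPM and to 5397 and 6708 CPM, with 6 of 12 called higher and 1 lower. Krt6b and Krt6a had log2 fold changes of 8.39 and 6.52, while Krt8 had -2.47. This list also holds genes that are not keratins, namely Sprr1b, Sprr2d, Sprr2h, S100a8 and S100a9. S100a8 and S100a9 are counted among the neutrophil markers as well. Macrophage markers summed to 22.4 and 46.1 CPM in controls and to 127 and 160 CPM in MOF cKO, with 10 of the 18 tested of 20 called higher, Lyz2 and Tyrobp foremost, and 0 to 2 of the 20 at 0 counts in a library. Lyz2 and Tyrobp had 8 counts or fewer in each control, so their changes support nothing. Neutrophil markers summed to between 1.14 and 1.34 CPM and to between 12.5 and 12.9 CPM, with 1 of 4 tested called, S100a9, and 5 or 6 of the 10 on the list at 0 counts in each E16.5 library. Endothelial markers had 1 of 10 called higher (Pecam1) and basal epidermal markers 1 of 8 called lower (Krt15). None of the tested dermal fibroblast (13), melanocyte (8), skeletal muscle (5) and hepatocyte (2) markers was called by edgeR in MOF cKO. The part of these markers in the Serpin values was not tested, and in bulk RNA fewer cells of a type and less RNA per cell cannot be told apart.

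**Figure D3:**
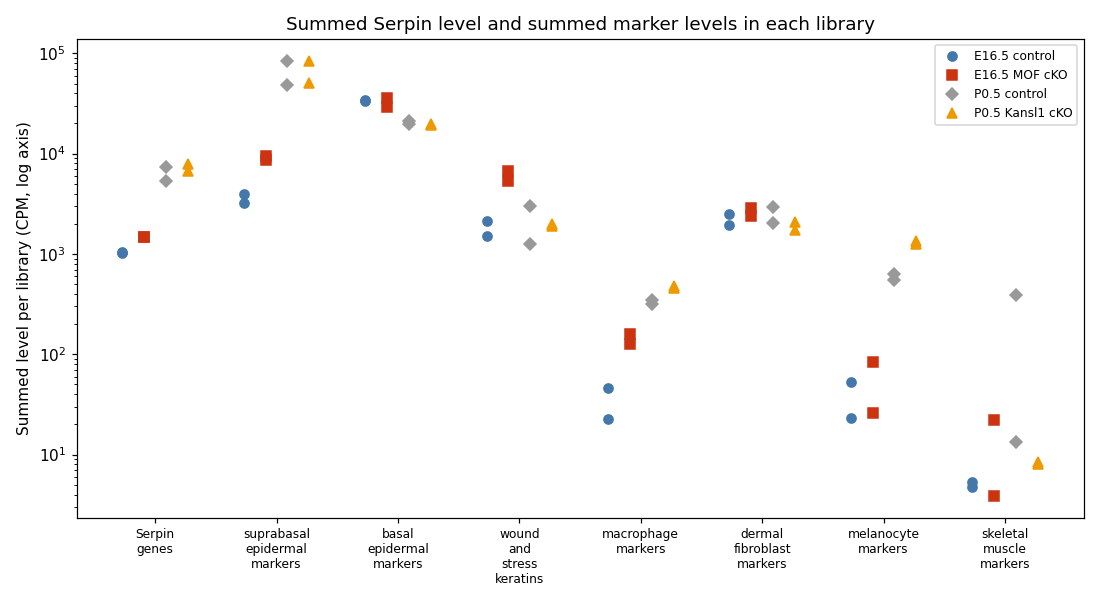
Summed level of the Serpin genes and of 7 marker lists in each library (CPM, log axis), 2 points per group. MOF cKO lies above its controls for the Serpin genes, suprabasal markers, wound and stress keratins and macrophage markers, and P0.5 control 1 lies alone at 392 CPM for skeletal muscle markers.

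Some other protease and protease inhibitor genes were also higher in MOF cKO, where 10% of all genes tested were higher and 9.59% lower. Of the secreted serine proteases and plasminogen system, 7 of 18 tested genes were higher and none lower. Plaur, the urokinase receptor, had a log2 fold change of 2.71 ± 0.25 (edgeR adjusted p = 0.000541), and Mcpt4, a mast cell protease, 4.996 ± 1.03. Lysosomal cathepsins and legumain had 3 of 13 higher and 1 lower, with Ctss at 5.03, Ctsc at 1.87 and Ctsz at -0.70 on the log2 scale. Granzymes and inflammatory caspases had 3 of 6 higher, led by Casp4 at 5.61 and Casp1 at 3.25, and kallikreins had 1 of 8 higher, Klk10 at 0.67. Among other inhibitors, 5 of 10 cystatins and stefins were higher, with BC117090 at 2.60 and BC100530 at 1.98, and 4 of 9 Kunitz, Kazal and WAP-domain inhibitors, with Slpi at 3.80 and Spink5 at 1.76. Tissue inhibitors of metalloproteases had 1 of 4 higher, Timp3 at 1.08. Mcpt4, Casp4, Ctss and Slpi had 10 counts or fewer in each control and passed the filter through MOF cKO alone, so their changes support nothing.

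In Kansl1 cKO, edgeR called 0 of the 33 tested members, and it called 0 of all 13031 genes (0%). At an unadjusted p under 0.05 there were 12 members, 11 higher and 1 lower, against 15.7% of all genes, and DESeq2 called 3 members higher, Serpinb3c, Serpinb3d and Serpine2, and 0.202% of all genes. The smallest edgeR adjusted p among members was 0.176. The members' median log2 fold change was 0.15 and that of all genes 0.01, and the members' median was -0.09 without Kansl1 cKO replicate 2. Values of 16 of the 33 members did not overlap between the groups, against 49.3% of all genes.

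The 4 Serpinb3 paralogs each stood above both controls in both Kansl1 cKO libraries. Serpinb3a was at 643 and 602 CPM in controls and at 1012 and 1026 CPM in Kansl1 cKO (log2 fold change 0.68 ± 0.16, edgeR adjusted p = 0.198). Serpinb3b was at 126 and 109 CPM and at 215 and 212 CPM (0.83 ± 0.16, edgeR adjusted p = 0.18), and Serpinb3c was at 250 and 231 CPM and at 752 and 556 CPM (1.41 ± 0.20, edgeR adjusted p = 0.176). Serpinb3d, at 7.58 and 9.80 CPM in controls, was at 52.0 and 21.8 CPM in Kansl1 cKO (2.05 ± 0.41, edgeR adjusted p = 0.18). The groups did not overlap for any of these genes, which also held for 16 of the 33 tested members and 49.3% of all genes. None of the Serpinb3 genes passed the edgeR threshold. Serpine2 was at 9.54 and 8.34 CPM in controls and at 26.7 and 21.8 CPM in Kansl1 cKO, with 1.42 ± 0.21 on the log2 scale (edgeR adjusted p = 0.176, DESeq2 adjusted p = 0.00125).

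Of the other members called in MOF cKO, Serpinb6c was at 55.4 and 52.6 CPM in P0.5 controls and at 52.1 and 70.3 CPM in Kansl1 cKO, which overlap. Serpinb12 was at 1228 and 991 CPM in controls and at 1247 and 1573 CPM in Kansl1 cKO (log2 fold change 0.31 ± 0.20). Serpinb1a was at 8.20 and 8.27 CPM and at 14.4 CPM in both Kansl1 cKO libraries (0.78 ± 0.21). The edgeR adjusted p of these 3 genes lay between 0.216 and 0.748. Serpinb2 was at 1116 CPM in control 1 and 307 CPM in control 2, and at 412 and 476 CPM in Kansl1 cKO, so that its log2 fold change went from -0.71 to 0.51 without control 1, the library with the muscle markers. Serpina3g was at 4.89 and 3.62 CPM in controls and at 3.14 and 4.32 CPM in Kansl1 cKO, and Serpina3h at 169 and 107 CPM and at 106 and 174 CPM. Serpina3n had 11 and 3 counts in controls and 2 and 1 in Kansl1 cKO and did not pass the filter. The groups overlapped for Serpinb2, Serpina3g and Serpina3h.

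Several other members of high level divided the libraries of a genotype rather than the genotypes. Serpinb5 was at 1614 and 1252 CPM in P0.5 controls and at 1336 and 1565 CPM in Kansl1 cKO. Serpina12, vaspin, an inhibitor of kallikrein 7, was at 874 and 654 CPM and at 503 and 912 CPM. Serpinb7 was at 461 and 304 CPM and at 211 and 318 CPM, and Serpinb8 at 316 and 198 CPM and at 169 and 329 CPM. In these and 12 more members, 16 of 33 or 48.5%, control 1 was above control 2 and Kansl1 cKO 2 above Kansl1 cKO 1, an order that 28.1% of all genes tested shared. Suprabasal markers had this order too, with sums of 84531 and 48418 CPM in controls and 50628 and 83250 CPM in Kansl1 cKO. Serpinh1 was at 138 and 158 CPM and at 220.2 and 202 CPM, Serpinb10 at 56.3 and 87.4 CPM and at 177 and 105 CPM, Serpinb11 at 42.0 and 27.2 CPM and at 64.4 and 86.6 CPM, and Serpini1 at 3.06 and 1.53 CPM and at 4.79 and 7.25 CPM. These 4 were higher at an unadjusted p between 0.00393 and 0.0225, and Serpinb9b was the 1 member lower (6.48 and 4.45 CPM, then 1.97 and 3.02 CPM, unadjusted p = 0.0222). Serpinb6a was at 100.05 and 129 CPM in controls and at 114 and 106 CPM in Kansl1 cKO.

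In Kansl1 cKO edgeR also called 0 genes of every protease, inhibitor and marker list. Melanocyte markers summed to 551 and 635 CPM in P0.5 controls and to 1265 and 1345 CPM in Kansl1 cKO, and macrophage markers to 314 and 344 CPM and to 453 and 482 CPM, and their part in the Serpin values was not tested.

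**Figure D4:**
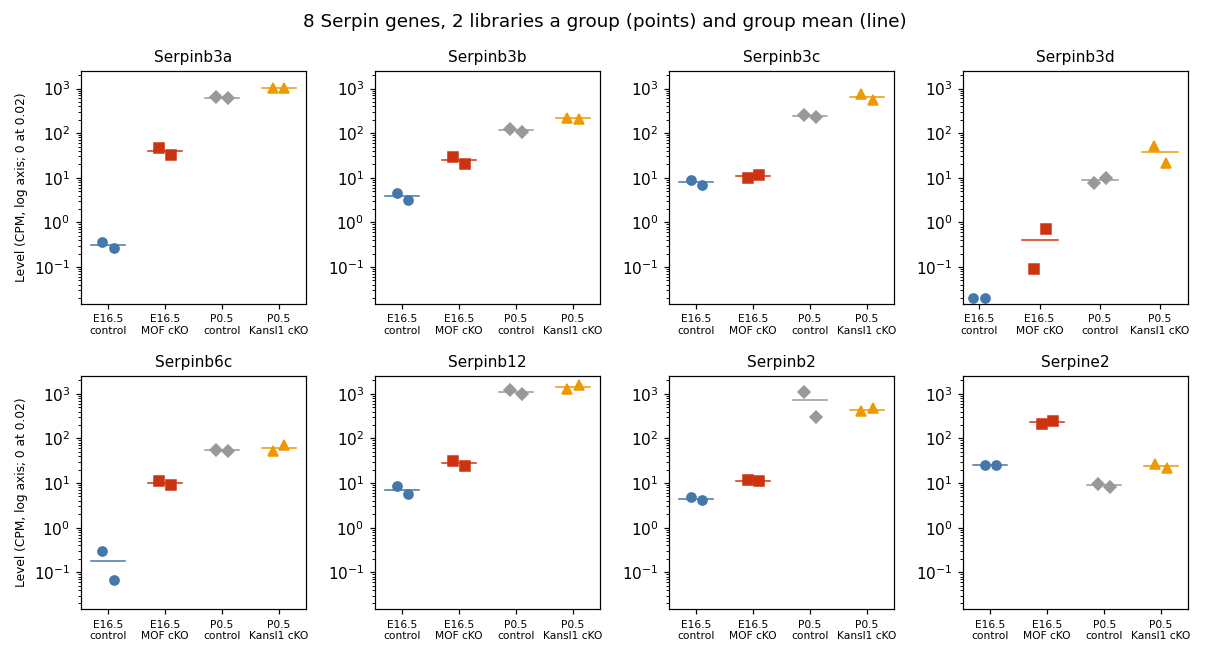
Level of 8 Serpin genes in each library (points) with the mean of the 2 libraries of a group (line), on a log axis of CPM shared by all panels and with 0 counts drawn at 0.02. The red squares lie above the blue circles for all 8 genes, and the orange triangles lie above the grey diamonds for the 4 Serpinb3 genes, Serpinb12 and Serpine2.

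The controls of the 2 stages differed more than either mutant did from its control. P0.5 controls had 19 of 34 tested members higher than E16.5 controls and 3 lower, against 22.2% and 17.6% of all 13859 genes tested, and 64.7% of members were called against 39.7% of all genes. The median log2 fold change was 1.97 for members and -0.01 for all genes. An unadjusted p under 0.05 was found for 28 members and 62.0% of all genes, and values did not overlap for 30 members, against 81.7% of all genes. Age, isolation of sorted cells or whole epidermis, and sequencing cannot be told apart here, and this comparison shares its control libraries with the other 2. The filter let 9 members through on their P0.5 libraries alone, 7 of them called (Serpina12, Serpina3j, Serpinb13, Serpinb3a, Serpinb3d, Serpinb6c and Serpinb9b), so these counts support nothing. Of the 25 members that either group alone would have let through, 12 were higher and 3 lower, against 20.2% and 19.1% of all such genes.

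Epidermal clade B genes made up most of the difference. Serpinb3a, near 0.3 CPM at E16.5, stood at 643 and 602 CPM in P0.5 controls (log2 fold change 11.04 ± 0.26). Serpinb12 and Serpinb2 had log2 fold changes of 7.41 ± 0.30 and 7.45 ± 0.65, Serpinb6c 8.23 ± 0.38, Serpinb3b 5.04 ± 0.23 and Serpinb3c 5.05 ± 0.19. Serpinb7 differed by 4.50 ± 0.28, Serpinb8 by 2.97 ± 0.28, Serpinb5 by 2.59 ± 0.19, Serpinb11 by 4.02, Serpinb9b by 4.92 and Serpinb1a by 1.26. Serpinb3d, at 0 in both E16.5 controls, was at least 91.5-fold higher, and Serpinb13, an inhibitor of cathepsins L and K, at least 7.80-fold higher, at 0.856 and 0.626 CPM. In clade A, Serpina12 had 5 and 1 counts at E16.5 and 7142 and 9411 counts at P0.5 (13.01 ± 0.41), and Serpina3j, Serpina9, Serpina3h and Serpina3i had log2 fold changes of 4.59, 3.90, 2.05 and 1.61. The members lower at P0.5 included Serpine2 (-1.38 ± 0.21) and Serpinh1 (-1.20 ± 0.17). The edgeR adjusted p of all 22 called members was 0.0098 or less. It supports nothing for the 7 that passed the filter through P0.5 controls alone, where 66.9% of all such genes were called higher.

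Members at 1 CPM or more that were not called between the controls included Serpina3b, Serpina3c, Serpina3g, Serpinb9, Serpinf1 and Serping1, which lay higher at P0.5 with edgeR adjusted p between 0.019 and 0.0649. Serpinb1b, Serpinb6a, Serpinb6b and Serpinb10 overlapped between the stages, and Serpini1 had a log2 fold change of -0.76 (edgeR adjusted p = 0.185). The E16.5 controls enter both this comparison and that of MOF cKO. Side by side, the log2 fold changes in MOF cKO and at P0.5 were 2.69 and 5.04 for Serpinb3b, 2.19 and 1.26 for Serpinb1a, 2.55 and 1.41 for Serpina3g, and 3.18 and -1.38 for Serpine2. Among members higher at P0.5 by a log2 fold change over 4, Serpinb3c, Serpinb7, Serpinb9b and Serpinb11 were tested and not called in MOF cKO, with values of 0.44, -0.87, 2.20 and 1.24.

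Suprabasal markers were higher at P0.5 for 11 of 11 genes, Ivl and Lor by 10.61 and 9.46, macrophage markers for 18 of 20 and melanocyte markers for 8 of 8, with Mlana at 6.25 and Tyr at 4.91. Skeletal muscle markers had 4 of 5 higher, with Ckm at 9.67 and Acta1 at 6.75, in part through control 1. Neutrophil markers had 2 of 3 higher (Cxcr2 at 5.91), hepatocyte markers 1 of 2 (Trf at 3.20), and dermal fibroblast markers 2 of 13 higher (Pdgfra, Fbn1) and 1 lower (Col5a1). Basal epidermal markers had 4 of 8 lower (Itgb4 and Krt5 foremost) and endothelial markers 1 of 8 (Egfl7). The list of wound and stress keratins, with its Sprr and S100a genes, had 5 of 11 higher (Sprr2d, Sprr2h) and 2 lower (Krt18, Krt8). Among proteases, kallikreins had 7 of 8 higher, with Klk7 at 8.60 and Klk5 at 7.89, and 1 lower, Klk10 at -0.82. Cathepsins had 11 of 14 higher (Ctss at 7.84, Napsa at 5.52) and Ctsz lower (-0.78), secreted serine proteases 7 of 20 (Tmprss11e at 9.51, Prss27 at 7.52), and granzymes and caspases 4 of 6 higher (Casp14 at 6.43, Casp4 at 5.93) and Gzmm lower (-3.82). Inhibitors of other kinds had 9 of 9 cystatins and stefins higher (Stfa2 at 8.25, Cst6 at 5.34), 4 of 10 Kunitz, Kazal and WAP-domain genes (Wfdc5 at 9.53, Spink5 at 9.25) and 1 of 4 inhibitors of metalloproteases (Cd109 at 1.75). Beside these list counts, 22.2% of all genes tested were higher at P0.5 and 17.6% lower. Tmprss11e, Prss27, Napsa, Casp4, Ckm, Cxcr2 and Sprr2d had 3 counts or fewer in each E16.5 control, so their changes support nothing. The part of these markers in the Serpin values was not tested.

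Called and uncalled members stood side by side in the clusters. The chromosome 1 cluster runs from Serpinb5 to Serpinb8 over chr1:106861173-107610484 and holds 12 members, of which 11 of 12 tested were higher at P0.5. In MOF cKO 4 of its 10 tested members were higher, and Serpinb3b was called while Serpinb3c next to it was not, a difference that was not tested. The chromosome 12 cluster (chr12:103614786-104414329) holds 24 clade A members, with 3 of 7 tested higher in MOF cKO, the neighbours Serpina3g and Serpina3h among them, and 5 of 9 at P0.5. Of the 15 members in the chromosome 13 cluster (chr13:32842092-34002794), 2 of 7 tested were higher in MOF cKO, Serpinb1a and Serpinb6c, and 3 of 7 at P0.5. Of all genes tested, 10% were higher in MOF cKO and 22.2% at P0.5. Each cluster held called members that passed the filter through the higher group alone, so these counts support nothing. Serpine2 (chr1:79794197-79861180) lies outside the clusters.

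**Figure D5:**
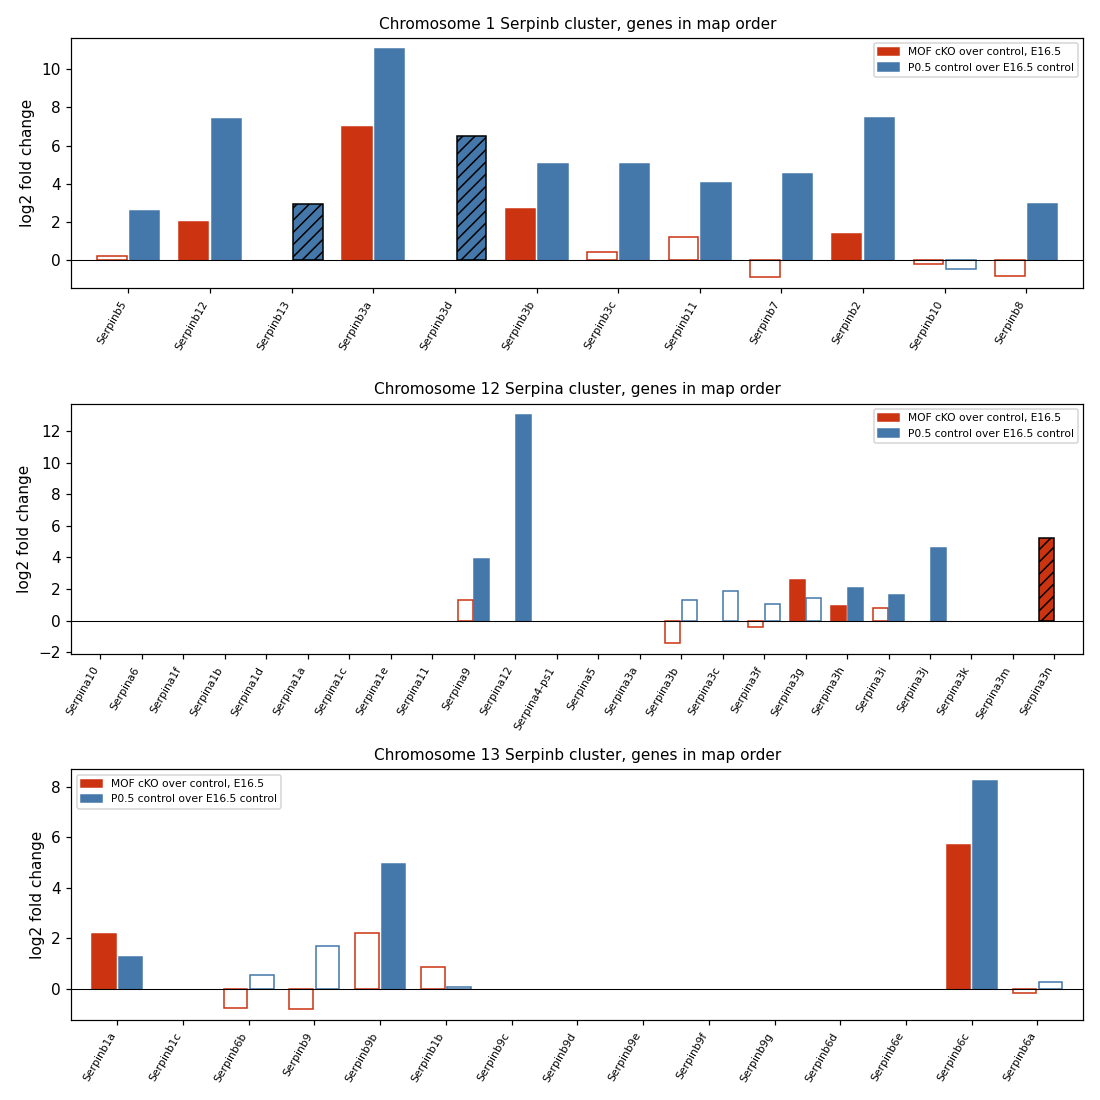
log2 fold change of the members of the 3 Serpin clusters in map order, for MOF cKO over control at E16.5 (red) and P0.5 control over E16.5 control (blue), with filled bars for called genes, open bars for genes tested and not called, and hatched bars at the lower bound for genes with 0 counts in E16.5 controls. Genes without a bar did not pass the filter on low counts, and blue bars of 11 of the 12 chromosome 1 genes are filled or hatched.

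The effects of the 2 deletions were compared in 1 model over all 8 libraries, in which gene deleted, age and isolation cannot be told apart. The difference passed the test for 6 of 36 members (16.7%) against 2.92% of all 14565 genes, and the effect was more positive in MOF cKO for all 6. By direction, the shares of all genes were 1.76% more positive and 1.17% more negative. The 6 include Serpinb3a and Serpina3n, whose changes in MOF cKO were known beforehand, so this count supports nothing. Serpinb3a differed by 6.24 ± 0.33, Serpinb6c by 5.496 ± 0.47 (edgeR adjusted p = 0.000687) and Serpina3g by 2.73 ± 0.45 (edgeR adjusted p = 0.00791). Serpinb3b differed by 1.83 ± 0.30 (edgeR adjusted p = 0.00795) and Serpine2 by 1.73 ± 0.23 (edgeR adjusted p = 0.00379), both of which were above control in each mutant. The sixth, Serpina3n, has no fold in controls at 0 counts. In the fit blocked by replicate number, Serpinb3a alone of these kept its call. Serpinb12, Serpinb1a and Serpinb2 were not called (edgeR adjusted p = 0.0143, 0.0212 and 0.069).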

How the data were processed

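Poly(A) RNA of 8 mouse libraries, 2 per group, was analysed. Per the labels and the study's methods, the authors aligned reads to mm10 and deposited counts per gene from HTSeq without normalization. The labels name TopHat2 and the methods HISAT2 as the aligner, and the annotation and strand setting are not given in the sources used here. HTSeq's summary rows, which name no gene, were left out (21.1% to 26.0% of the counts in a library). The deposited counts were tested in R 4.3.3 with edgeR 4.0.16 (filterByExpr, TMM factors, quasi-likelihood test, two-sided, Benjamini-Hochberg adjustment over all genes tested), and SE is the log2 fold change divided by the root of F. CPM used TMM factors over all 8 libraries, while fold changes come from each comparison's own libraries. Genes were called at 0.01 (adjusted p) and 1.5-fold, as the study's methods set it.

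Members are named with values at a mean of 1 CPM or more in a group or when called, the others once with their highest count. Values per library are given for called members and the 10 with the highest control mean, and from other lists the 2 largest called changes per direction. Values given beyond this rule were chosen after they were seen. The members and lists were chosen with earlier results of these data known. The study's methods describe 2 pairs of samples at each age with littermate controls, but the labels do not say that same-numbered libraries are a pair, so replicate number was no term of the model. Deviations of libraries with the same number correlated by 0.253 (E16.5) and -0.252 (P0.5) over genes. An edgeR p-value weighs the difference between groups against a spread estimated from 2 libraries per group and moderated over all genes tested. The test was checked on simulated counts. DESeq2 1.42.0 and the other alternatives are given at the end. Coordinates and coding sequences came from GENCODE M21 and promoters from RefSeq (GRCm38.p6). Windows of 150 bases were compared between transcripts. Hinges were searched in translations of the coding sequences, and the Serpinb3 loop codons were matched by aligning these translations. No separate protein sequences were used here. 1 member, kept in the counts, is not reported here.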

Additional observations from a re-analysis of the deposited data

Results flagged for a closer look

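The effect in MOF cKO at E16.5 minus the effect in Kansl1 cKO at P0.5, tested as an interaction over all 8 libraries with edgeR, passed the threshold for 6 Serpin genes. Serpinb3a differed by 6.24 on the log2 scale, given with no p because its change in MOF cKO was known when the family was taken up. Serpinb6c differed by 5.496 (edgeR adjusted p = 0.000687), with both MOF cKO libraries above their controls and overlapping levels at P0.5. Serpine2 differed by 1.73 (edgeR adjusted p = 0.00379), and Serpinb3b by 1.83 (edgeR adjusted p = 0.00795). Serpina3g differed by 2.73 (edgeR adjusted p = 0.00791). Serpina3n had a fitted difference of 11.99, which depends on the prior count because both E16.5 controls had 0 counts, and which supports nothing. When each of the 8 libraries was left out in turn, Serpinb3a and Serpinb6c kept the call 8 times, Serpine2 4 times, and Serpina3g, Serpinb3b and Serpina3n 1 time each, and with the replicate block only Serpinb3a kept it. Gene deleted, age, isolation and sequencing cannot be told apart in these values. The calls of Serpinb3a and Serpina3n, kept or lost, support nothing, since both changes in MOF cKO were known beforehand.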

How the results depend on the processing

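The 10 members higher in MOF cKO numbered 8 to 12 under the alternatives. The 1 lower member became 3 with DESeq2 or library size alone, 4 without the filter on low counts, with the likelihood ratio test, at an adjusted p of 0.05 or with a replicate block, and 0 in the test against 1.5-fold, in 1 fit over all 8 libraries and without MOF cKO replicate 1, the range without a replicate being 0 to 4. The median of 0.82 was 0.52 with library size alone, a scaling that moved the median of all genes to -0.32, was 0.63 in 1 fit over all libraries, and ranged from 0.54 (without MOF cKO replicate 2) to 0.95. Library size alone gave 9 members higher and 3 lower, and 769 and 2743 of all genes against 1395 and 1338. In Kansl1 cKO, members called higher numbered 3 with DESeq2, 3 with the likelihood ratio test, 4 without the filter and 0 to 4 without a replicate (4 without Kansl1 cKO replicate 2), and the median of 0.15 ranged from -0.0859 to 0.34. Leaving out a replicate turned the Kansl1 cKO values of Serpina3g (-0.47 to 0.0044), Serpina3h (-0.42 to 0.35), Serpinb2 (-1.40 to 0.51) and Serpinb6c (-0.0859 to 0.32), and 1 fit over all libraries that of Serpina3h (0.0153). Between controls, the median of 1.97 was 2.62 with DESeq2, 2.57 without the filter, 1.86 with upper-quartile factors, 1.85 in 1 fit over all libraries, 1.502 with library size alone, which moved that of all genes to -0.47, and 1.68 to 2.25 without a replicate. For the difference of the effects, members called higher numbered 11 without the filter, 1 with the replicate block and 2 to 6 without a replicate, and members called lower 2 with DESeq2, 2 without the filter, 3 at an adjusted p of 0.05 and 0 to 1 without a replicate. Without a replicate, a group has 1 library, assumed to vary like the others. With the replicate block 12 members were higher in MOF cKO, 0 in Kansl1 cKO and 17 at P0.5, and a crossed block in Kansl1 cKO, chosen after seeing the data, called 0 members. The cause of these shifts was not tested.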

Other observations

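At an adjusted p of 0.05, further members differed between the effects of MOF cKO and Kansl1 cKO, and those given here were chosen after their values were seen. Serpini1, neuroserpin, was below control in MOF cKO and above control in Kansl1 cKO, with a difference of -4.30 ± 1.01 on the log2 scale (edgeR adjusted p = 0.0257). Serpinb3c differed by -0.998 ± 0.26 (edgeR adjusted p = 0.0366), the opposite direction to its paralogs Serpinb3a and Serpinb3b. Serpinb9b, a relative of the granzyme B inhibitor Serpinb9, differed by 3.33 ± 0.89 (edgeR adjusted p = 0.0391), with MOF cKO libraries at 0.463 and 1.29 CPM over controls at 0.240 and 0.134 CPM.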
